A study of Mus musculus with 4 samples.

Results

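The 36 genes described here make the proteins that copy DNA in S phase and that separate the copies in mitosis. They were taken by symbol from a list of genes known for these roles, and all 36 were found, once each, among the 34147 distinct symbols of the expression table. They fall into 14 replication genes, 19 mitosis genes and 3 genes for transcription regulators of both. The RNA came from 4 lung cancer lines of the mouse, each sequenced as 1 library. The metastatic lines 238N1 and 482N1 came from lymph nodes, and the non-metastatic lines 368T1 and 394T4 from the lung. Metastatic status and the site a line came from therefore cannot be told apart. All 4 lines came from tumours that a lentiviral Cre vector started in 129S1/SvImJ mice of the genotype abbreviated KP, which carry floxed p53 alleles, so the floxed p53 alleles are common to both groups. Age is not given, and each line stands for 1 tumour or metastasis. The growth notes describe cultured cells and the deposited values are named in vitro, while the treatment notes speak of tumour samples. With 1 library per line, p-values measure the spread between lines of a group.

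Before a cell divides, the MCM helicase is loaded at replication origins, the clamp PCNA holds the polymerases on the template, and enzymes such as ribonucleotide reductase supply the nucleotides. E2F transcription factors switch many of these genes on at the start of S phase. Later, Cdk1 with its cyclins drives entry into mitosis, and B-Myb and FoxM1 help to switch on the mitotic genes, many of which carry a promoter element called the CHR beside CCAAT boxes. The spindle checkpoint then holds the anaphase-promoting complex in check until chromosomes are attached. In tumour RNA, the summed activity of these genes is widely used as a measure of proliferation. In bulk RNA a smaller number of cycling cells and less RNA per cycling cell cannot be told apart.

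Many promoters of these genes hold short elements of the kinds named above, and 4 windows that show them are printed. The 4 were picked by unadjusted p in limma, only among genes with an E2F or CHR match. Windows of 300 bases, from 250 before to 50 after the start of transcription, came from RefSeq (GRCm38.p6, a later build than the mm9 of the expression files) and were matched by symbol for 29 of the 36 genes. The genes with no entry were Mcm4, Ccne2, Ccna2, Aurkb, Tpx2, Kif20a and Foxm1. An E2F site was counted as TTTCCCGC, TTTGGCGC or TTTCGCGC, the CHR as TTTGAA or TTCGAA, and the CCAAT box as CCAAT, each on both strands. Cdc6 (chr11:98907901-98908200, plus strand) and Mcm5 (chr8:75109259-75109558, plus strand) are replication genes that stood lower in both metastatic lines. Cdc20 (chr4:118437294-118437593, minus strand) is a mitosis gene that stood lower, and Mki67 (chr7:135716330-135716629, minus strand) one that stood higher. Birc5, Tk1, Tyms and Mybl2 stood lower too, and their windows had no match to any of these elements. Capitals mark every match, 5′ to 3′ on the strand of the gene.
Cdc6: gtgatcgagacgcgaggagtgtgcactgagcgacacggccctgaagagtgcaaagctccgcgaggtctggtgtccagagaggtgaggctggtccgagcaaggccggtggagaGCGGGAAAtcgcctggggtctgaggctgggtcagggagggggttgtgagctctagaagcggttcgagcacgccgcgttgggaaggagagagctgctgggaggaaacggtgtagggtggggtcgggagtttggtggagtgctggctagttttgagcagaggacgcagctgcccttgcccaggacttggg
Mcm5: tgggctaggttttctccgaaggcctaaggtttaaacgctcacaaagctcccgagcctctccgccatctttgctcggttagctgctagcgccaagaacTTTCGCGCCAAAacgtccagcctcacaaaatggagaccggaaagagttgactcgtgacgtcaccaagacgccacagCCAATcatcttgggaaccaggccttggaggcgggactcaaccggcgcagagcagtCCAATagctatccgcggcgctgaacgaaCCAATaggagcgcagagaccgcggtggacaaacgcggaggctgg
Cdc20: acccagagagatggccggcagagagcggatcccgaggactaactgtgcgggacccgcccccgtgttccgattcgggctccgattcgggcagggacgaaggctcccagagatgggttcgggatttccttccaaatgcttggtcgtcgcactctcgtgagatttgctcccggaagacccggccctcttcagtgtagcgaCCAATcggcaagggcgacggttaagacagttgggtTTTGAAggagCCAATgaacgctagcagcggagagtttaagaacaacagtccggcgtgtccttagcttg
Mki67: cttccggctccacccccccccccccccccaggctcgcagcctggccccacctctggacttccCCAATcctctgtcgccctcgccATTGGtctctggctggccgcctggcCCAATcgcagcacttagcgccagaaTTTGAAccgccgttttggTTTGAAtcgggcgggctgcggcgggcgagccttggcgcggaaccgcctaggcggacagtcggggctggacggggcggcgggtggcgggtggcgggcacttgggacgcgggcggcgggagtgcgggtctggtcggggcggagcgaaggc
The Cdc6 window has 1 E2F site, on the other strand, starting 138 bases before the transcription start. The Mcm5 window has 2 overlapping E2F matches, starting 153 and 149 bases before it, and 3 CCAAT boxes. In the Cdc20 window the CHR starts 18 bases before the transcription start, between 2 CCAAT boxes, and the Mki67 window has 2 CHR matches, at 116 and 98 bases, and 3 CCAAT boxes.

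An E2F site was found in 5 of 12 replication windows, 1 of 15 mitosis windows and 2.12% of the 27025 genes in the promoter table. The 5 were Mcm3, Mcm5, Mcm6, Mcm7 and Cdc6, and the mitosis gene was Cdk1. The CHR and a CCAAT box occurred together in 12 of 15 mitosis windows, 2 of 12 replication windows and 8.61% of all genes. The 3 mitosis windows without both were those of Ccnb1, Birc5 and Cenpe. Among related genes that are no members, an E2F site was found in 12 of 35 other replication windows and 3 of 40 other mitosis windows, and the pair of CHR and CCAAT in 3 and 23 of them. Cdc20 and Mki67, which lay on opposite sides in expression, both carry the pair. A match is a description of the letters in the window and was not tested for function.

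Expression is given as FPKM, fragments per kilobase of transcript, scaled to the number of mapped fragments, so levels can be set side by side between genes. The libraries' FPKM sums ranged from 924354 to 2279794, and a single row annotated as a miRNA, AC113316.1, took 18.7% to 62.4% of them. Depth relative to 238N1, estimated from what 1 fragment is worth in low values, was 0.581 for 482N1, 0.610 for 368T1 and 0.554 for 394T4, each the commonest ratio, shared within 1% by only 130 to 162 of the low genes compared. Read totals are unknown, so no counting intervals are given. All 6 epithelial markers reached 1 FPKM in every line. In 5 of 6 both metastatic lines lay below both others, beside 26.9% of all genes tested. The median log2 fold change of the 6 was -0.87, against 0.05 for all genes. The exception was Cdh1, with 173.8 and 104.4 FPKM in 238N1 and 482N1, against 108.7 and 155.1 FPKM in 368T1 and 394T4. The 6 markers summed to 2916 and 1768 FPKM in 238N1 and 482N1, against 3941 and 3668 FPKM in 368T1 and 394T4. Epcam was at 4.13 and 4.76 FPKM in the metastatic lines, against 53.98 and 34.3 FPKM in the non-metastatic lines. Krt7 was far lowest in 482N1, with 349.6 FPKM in 238N1 but 6.90 in 482N1, against 456 in 368T1 and 480.0 in 394T4, and Krt19 likewise, with 739 FPKM in 238N1 but 257 in 482N1, against 968 in 368T1 and 914 in 394T4. Of 10 leukocyte markers only Cd68 reached 1 FPKM, in each line, and Ptprc was listed at 0 in all 4. Of 6 endothelial markers none reached it. Fibroblast markers summed to 39.8 FPKM in 482N1, and to 0.678, 2.47 and 4.30 FPKM in 238N1, 368T1 and 394T4. In 482N1, 4 of 8 were at 1 FPKM or more: Col1a1 (16.3 FPKM), Acta2 (16.3 FPKM), Col3a1 (5.82 FPKM) and Pdgfrb (1.22 FPKM). Col1a2, Dcn and Lum were listed at 0 in all lines. The part of these markers and cells in the differences between lines was not tested.

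The comparison asked how metastatic and non-metastatic lines differ, and among the 36 genes the replication genes were mostly lower in the metastatic lines. In 9 of 14 replication genes neither metastatic line reached the lower of the non-metastatic lines, and in 1 gene both exceeded the higher. Among the 19 mitosis genes these counts were 9 and 2, and among the 3 regulators 2 and 0. Over all 12425 genes with a mean of at least 1 FPKM, 26.9% lay below and 28.3% above in this way. All 36 members reached that mean. The median log2 fold change (metastatic minus non-metastatic, of FPKM + 1) was -0.45 for replication genes, -0.28 for mitosis genes, -0.33 for the regulators and 0.05 for all genes. These medians stayed below that of all genes under every alternative tried. Many alternatives could hardly change that, since variance models leave fold changes as they are and scaling moves members and all genes nearly alike. Scaling to the library sum, which AC113316.1 dominates, made the medians themselves positive (0.18, 0.35 and 0.27, with 0.61 for all genes). It left 0 replication and 0 mitosis genes below without overlap, where 1.86% of all genes lay below. In that scaling Cdk1 turned to a log2 fold change of 0.09, and Plk1 (-0.0177), Cdc20 (-0.0622), Tyms (-0.0681), Mcm2 (-0.0734) and Birc5 (-0.10) came close to 0.

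Without 238N1 the medians were -0.68 for replication and -0.12 for mitosis genes, with 0.06 for all genes. Fewer lines overlap less by construction: without 238N1, 7 of 19 mitosis genes lay above, against 45.2% of all genes, and without 394T4 6 of 19, against 43.4%. No member passed the test after adjustment. In limma, Benjamini-Hochberg adjusted p was under 0.05 for 0.0483% of all genes as lower and 0.113% as higher, and for 0 of the 36 members. At an unadjusted p under 0.05, 6 replication genes, 4 mitosis genes and 1 regulator were lower and none was higher, against 8.68% lower and 5.70% higher among all genes. The differences below are therefore values with their errors, and with 2 lines against 2 an exact permutation of a single gene cannot go under p = 0.333.

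**Figure D1:**
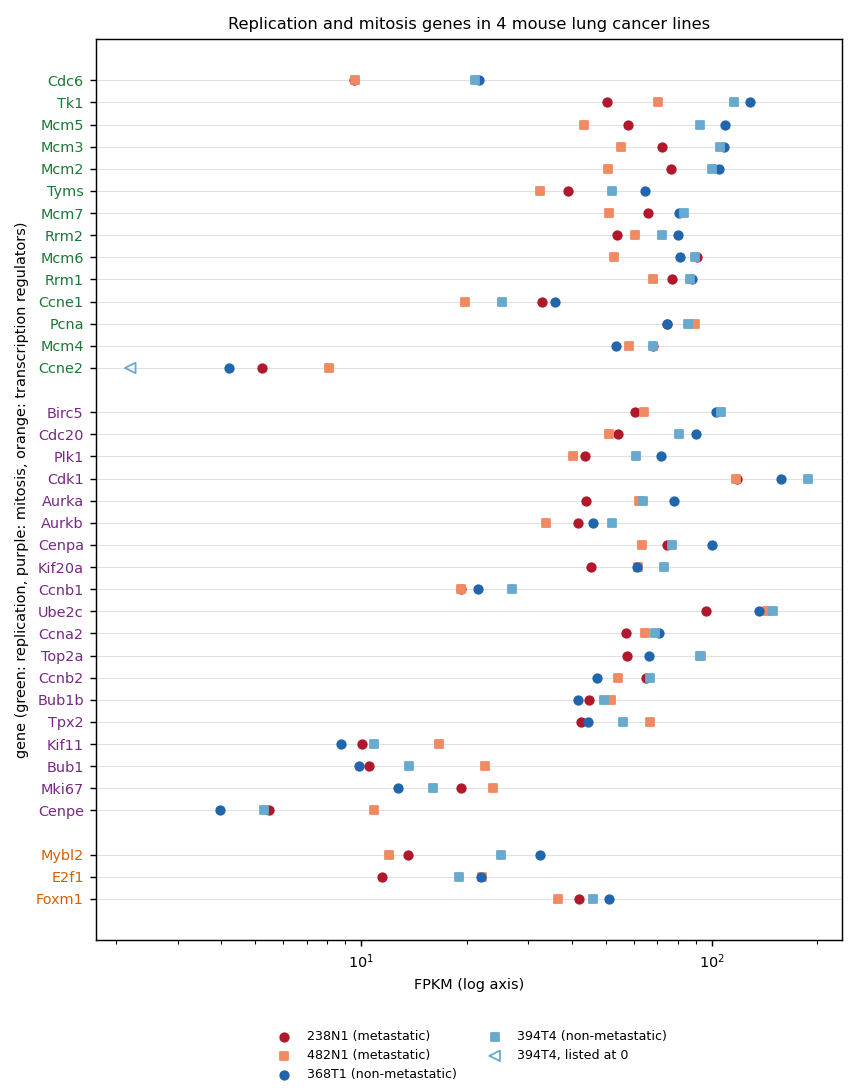
Each row is a gene and each point its FPKM in 1 line on a log axis, with replication, mitosis and regulator genes in separate blocks sorted by fold change. In Cdc6 the metastatic lines sit at 9.53 and 9.62 FPKM and the non-metastatic lines at 21.7 and 21.1 FPKM. The order of the lines is mixed further down the replication and mitosis blocks. At their foot, in Ccne2, Mki67 and Cenpe, both metastatic lines lie above both others. The open triangle marks Ccne2, listed at 0 in 394T4, and its place on the log axis has no value.

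Of the origin-licensing genes, Cdc6 differed most. Cdc6, which loads the helicase at origins (chromosome 11, 98769115 to 98785254, mm9), had 9.53 FPKM in 238N1 and 9.62 in 482N1, against 21.7 in 368T1 and 21.1 in 394T4. The lines of a group lay close together, with means of 9.57 ± 0.0617 FPKM in metastatic and 21.4 ± 0.474 FPKM in non-metastatic lines (SD, n = 2 each; log2 fold change -1.08, SE 0.17, limma's adjusted p = 0.277). Mcm5, a helicase subunit (chromosome 8, 77633427 to 77652338, mm9), had 57.6 and 43.1 FPKM in 238N1 and 482N1, against 109 and 92.7 FPKM in 368T1 and 394T4 (log2 fold change -0.999, SE 0.21, adjusted p = 0.328). Mcm3 had 72.0 and 55.1 FPKM in the metastatic lines, against 108 and 106 FPKM in the non-metastatic lines (-0.75, SE 0.19, adjusted p = 0.335). Mcm2, at 76.7 and 50.6 FPKM in metastatic lines, against 105 and 99.9 FPKM in non-metastatic lines, had a log2 fold change of -0.71 (SE 0.24, adjusted p = 0.340). In these 3 subunits 482N1 was the lowest line and both non-metastatic lines lay above 238N1. Mcm7 had 65.8 and 51.1 FPKM in 238N1 and 482N1, against 80.4 and 83.2 FPKM in 368T1 and 394T4, also without overlap.

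The other 2 helicase subunits did not separate the groups. Mcm4 had 68.2 and 57.9 FPKM in the metastatic lines, against 53.4 and 68.1 FPKM in the non-metastatic lines. Mcm6 had 90.5 FPKM in 238N1 and 52.7 FPKM in 482N1, against 81.4 and 89.6 FPKM in 368T1 and 394T4, so 482N1 alone was low. The 6 subunits form a ring with 1 copy of each, and their summed level was 431 and 311 FPKM in 238N1 and 482N1, against 537 and 539 FPKM in 368T1 and 394T4. Each subunit's share of that sum does not depend on how a library is scaled. Mcm5 made up 13.4% and 13.9% of the sum in 238N1 and 482N1, against 20.3% and 17.2% in 368T1 and 394T4. Mcm4 made up 15.8% and 18.7% in metastatic lines, against 9.93% and 12.6% in non-metastatic lines. The shares of Mcm2, Mcm3 and Mcm5 were lower in both metastatic lines and those of Mcm4 and Mcm6 higher, without overlap, though for Mcm6 482N1 (16.97%) was close to 394T4 (16.61%). The share of Mcm7 overlapped and ranged from 15.0% to 16.4%. A share can still follow the GC content of the transcript. That was 55.5%, 52.6% and 52.1% for Mcm2, Mcm3 and Mcm5, 45.5% and 47.3% for Mcm4 and Mcm6, and 53.4% for Mcm7. The part of GC in the shares was not tested, and no test was run on shares.

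**Figure D2:**
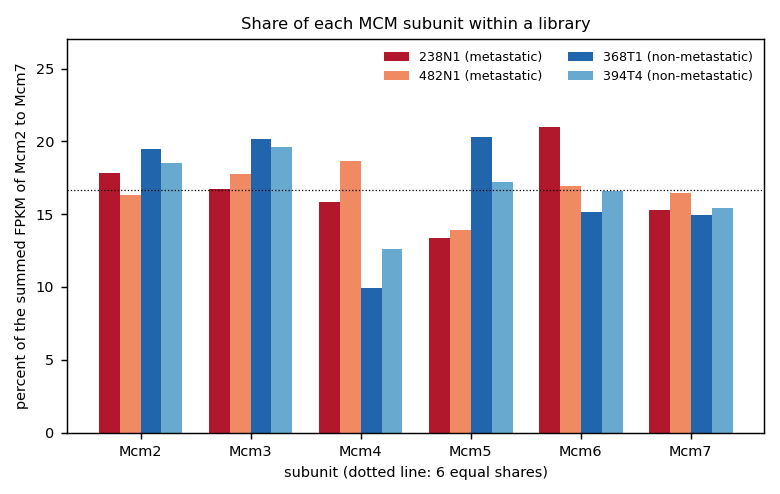
Bars give each MCM subunit's share of the summed FPKM of Mcm2 to Mcm7 in 1 library (percent, no error bars since each bar is 1 library), with metastatic lines left of non-metastatic lines and a dotted line at 6 equal shares. Mcm5 is 13.4% and 13.9% in the metastatic lines against 20.3% and 17.2% in the non-metastatic lines, and Mcm4 is 15.8% and 18.7% in metastatic lines, against 9.93% and 12.6% in non-metastatic lines.

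Among genes of nucleotide supply, the fold changes of the salvage and thymidylate enzymes were larger than those of ribonucleotide reductase, a difference that was not tested. Tk1, thymidine kinase (chromosome 11, 117676840 to 117687406, mm9), had 50.1 and 70.3 FPKM in 238N1 and 482N1, against 128 and 115 FPKM in 368T1 and 394T4 (log2 fold change -1.02, SE 0.22, limma's adjusted p = 0.328). Tyms, thymidylate synthase, had 39.0 and 32.3 FPKM in the metastatic lines, against 64.7 and 52.0 FPKM in the non-metastatic lines (-0.69, SE 0.20, adjusted p = 0.335). The small reductase subunit Rrm2 had 53.8 and 60.6 FPKM in metastatic lines, against 79.9 and 72.0 FPKM in non-metastatic lines. The large subunit Rrm1 had 77.1 and 67.9 FPKM in metastatic lines, against 87.9 and 86.9 FPKM in non-metastatic lines. All 4 genes lay lower in both metastatic lines, without overlap, as did 26.9% of all genes tested.

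The replication clamp and the E cyclins did not separate the groups in that direction. Pcna ranged from 89.6 FPKM in 482N1 down to 74.3 FPKM in 368T1, and the groups overlapped. Ccne1, the cyclin that starts S phase with Cdk2, ranged from 19.8 FPKM in 482N1 to 35.7 FPKM in 368T1 and overlapped between groups. Its paralog Ccne2 had 5.23 and 8.12 FPKM in 238N1 and 482N1, against 4.21 FPKM in 368T1, and was listed at 0 in 394T4. It is the replication gene in which both metastatic lines lay above the others. A 0 in this table can be a failed estimate, so no mean is given for Ccne2, and its fitted log2 fold change (1.72, SE 0.87) depends on how that 0 is read.

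The mitosis genes were split, with 9 lower in both metastatic lines, 2 higher and 8 that overlapped. Over all genes tested, 26.9% lay lower and 28.3% higher in this way. The 9 lower mitosis genes were Birc5, Cdc20, Plk1, Cdk1, Aurka, Aurkb, Cenpa, Ccnb1 and Ccna2. Birc5, survivin, a subunit of the chromosomal passenger complex (chromosome 11, 117710565 to 117717069, mm9), had 60.5 and 64.0 FPKM in 238N1 and 482N1, against 102 and 106 FPKM in 368T1 and 394T4 (log2 fold change -0.74, SE 0.14, limma's adjusted p = 0.328). Aurkb, the kinase of that complex, had 41.5 and 33.7 FPKM in the metastatic lines, against 45.8 and 51.8 FPKM in the non-metastatic lines. The groups did not overlap in either gene, and the gap was wider for Birc5. Cenpa, the histone H3 variant of centromeres, had 74.5 and 63.2 FPKM in metastatic lines, against 100.3 and 77.0 FPKM in non-metastatic lines, with 238N1 just below 394T4.

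Cdk1, the kinase of mitotic entry, had 118.0 and 117 FPKM in 238N1 and 482N1, against 158 and 189 FPKM in 368T1 and 394T4 (log2 fold change -0.55, SE 0.16, limma's adjusted p = 0.335). The fold changes of its cyclins were smaller in size. Ccnb1 had 19.2 and 19.3 FPKM in the metastatic lines, against 21.5 and 26.96 FPKM in the non-metastatic lines, and Ccna2, which also acts in S phase, had 57.1 and 64.4 FPKM in metastatic lines, against 70.8 and 69.0 FPKM in non-metastatic lines. Ccnb2 overlapped, at 65.1 and 54.1 FPKM in metastatic lines, against 47.0 and 66.7 FPKM in non-metastatic lines. Within a library, Ccnb2 over Cdk1 was 0.552 and 0.460 in 238N1 and 482N1, against 0.298 and 0.353 in 368T1 and 394T4.

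Plk1, a kinase of centrosomes and kinetochores, had 43.5 and 40.2 FPKM in 238N1 and 482N1, against 71.5 and 60.9 FPKM in 368T1 and 394T4 (log2 fold change -0.65, SE 0.16, limma's adjusted p = 0.335). Aurka, a spindle pole kinase, had 43.8 and 61.8 FPKM in metastatic lines, against 77.9 and 63.5 FPKM in non-metastatic lines, with 482N1 just below 394T4. Cdc20, the activator of the anaphase-promoting complex (chromosome 4, 118105506 to 118109957, mm9), had 53.96 and 50.9 FPKM in metastatic lines, against 90.2 and 80.7 FPKM in non-metastatic lines (-0.69, SE 0.15, adjusted p = 0.328). Ube2c, the ubiquitin-conjugating enzyme of that complex, overlapped, with 96.3 and 143 FPKM in 238N1 and 482N1 against 136 and 149.7 FPKM in 368T1 and 394T4.

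In 8 mitosis genes besides Ccnb2 and Ube2c the metastatic lines were not below the others, or overlapped with them. Mki67, the source of the Ki-67 antigen used to count cycling cells (chromosome 7, 142881471 to 142908062, mm9), had 19.2 and 23.8 FPKM in 238N1 and 482N1, against 12.7 and 16.0 FPKM in 368T1 and 394T4 (log2 fold change 0.55, SE 0.22, limma's adjusted p = 0.354). Cenpe, a kinetochore motor, had 5.48 and 10.9 FPKM in metastatic lines, against 3.96 and 5.30 FPKM in non-metastatic lines (0.65, SE 0.38, adjusted p = 0.427). These 2 were the mitosis genes in which both metastatic lines lay above both others, and for Cenpe the margin between 238N1 and 394T4 was small. The checkpoint kinase Bub1 and the spindle motor Kif11 overlapped, with 482N1 highest, at 22.5 and 16.7 FPKM, and 368T1 lowest, at 9.88 and 8.75 FPKM. Bub1b, Tpx2, Kif20a and Top2a overlapped as well. Their values lay between 41.5 FPKM (Bub1b in 368T1) and 93.2 FPKM (Top2a in 482N1).

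Of the transcription regulators, Mybl2 differed most and E2f1 and Foxm1 less. Mybl2, which encodes B-Myb (chromosome 2, 162880423 to 162910424, mm9), had 13.6 and 11.98 FPKM in 238N1 and 482N1, against 32.4 and 25.1 FPKM in 368T1 and 394T4 (log2 fold change -1.10, SE 0.21, limma's adjusted p = 0.328). Foxm1 had 41.9 and 36.5 FPKM in metastatic lines, against 51.0 and 45.9 FPKM in non-metastatic lines, also without overlap. E2f1 had 11.5 FPKM in 238N1 and 22.2 FPKM in 482N1, against 21.9 and 19.03 FPKM in 368T1 and 394T4, so that the 2 metastatic lines were the lowest and the highest.

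**Figure D3:**
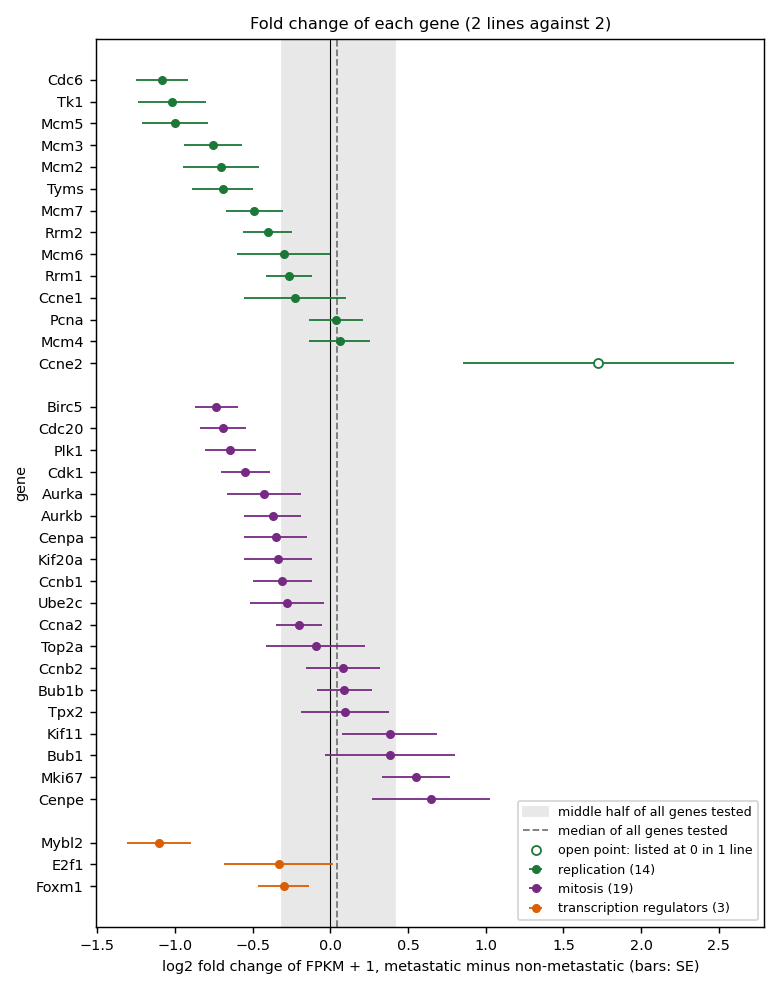
Points give each gene's log2 fold change (metastatic minus non-metastatic, of FPKM + 1) with its SE from the fit to all genes, and the grey band covers all 12425 genes between their quartiles. Cdc6, Tk1, Mcm5 and Mybl2 lie near -1, the mitosis genes lie between -0.74 and 0.65, and the open point is Ccne2, which was listed at 0 in 394T4.

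Lines of 1 group also differed from each other, with most mitosis genes going one way and most replication genes the other. In 482N1 over 238N1, 13 of 19 mitosis genes were higher, with a median ratio of 1.15 in FPKM + 1, while 5 of 14 replication genes were higher, with a median ratio of 0.842. In 394T4 over 368T1, 14 of 19 mitosis and 4 of 14 replication genes were higher, with median ratios of 1.18 and 0.962. These counts and ratios were not made over all genes, so an offset between the libraries of a pair cannot be told apart from them. The members more than 2-fold apart within a group were Bub1, with 22.5 FPKM in 482N1 but 10.6 in 238N1, and Ccne2. The lowest level among the 4 lines was in 482N1 for 8 of 14 replication genes, and in 238N1 for 8 of 19 mitosis genes. The mean log2 level of mitosis genes minus that of replication genes was -0.24 in 238N1 and 0.20 in 482N1, against -0.43 in 368T1 and -0.05 in 394T4. The value of 394T4 rests on the 0 of Ccne2: without that gene the differences were -0.47 in 238N1 and 0.03 in 482N1, against -0.71 in 368T1 and -0.49 in 394T4, so that 482N1 stood apart from the other 3 lines. These are values of single libraries with no test.

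Transcript base composition moved with the differences, in these genes and in all genes. Across the 10809 tested genes with a coding transcript in GENCODE vM1, the log2 fold change and the GC content of the longest transcript had a Spearman rho of -0.45, and across the 36 members of -0.62. The points share the same 4 libraries. All genes with over 54% GC had a median log2 fold change of -0.23, and those with at most 42% a median of 0.55. The 20 members that lay lower without overlap had a median GC content of 51.7%, the 13 that overlapped 47.8%, and the 3 that lay higher (Ccne2, Cenpe and Mki67) 36.3%, 43.0% and 46.6%. Transcript length went the other way, with a rho of 0.32 across all genes and 0.28 across the members. The relation to GC was also present between lines of 1 group, with a rho of -0.12 for 482N1 minus 238N1 and -0.38 for 394T4 minus 368T1. Whether it comes from the libraries or from the cells was not tested.

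With each library's trend on GC content removed, an adjustment added once the data had been seen, replication genes lay lower in 11 of 14 and higher in 0, mitosis genes lower in 10 of 19 and higher in 1, against 25.2% lower and 25.025% higher among all 10809 genes. The medians were then -0.55 and -0.38. Cdc6 was at -1.16, Birc5 at -0.90, Mybl2 at -0.88 and Cdk1 at -0.73. Mki67 was the 1 member higher without overlap, at 0.34, while Cenpe (0.26), Kif11 (-0.04) and Bub1 (-0.09) overlapped. With the trend on transcript length removed in its place, Mki67, whose transcript of 10075 bases is the longest of the members, was at only 0.0842, and Cenpe (7813 bases) was at 0.26 and overlapped. No member passed after adjustment in either fit.

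**Figure D4:**
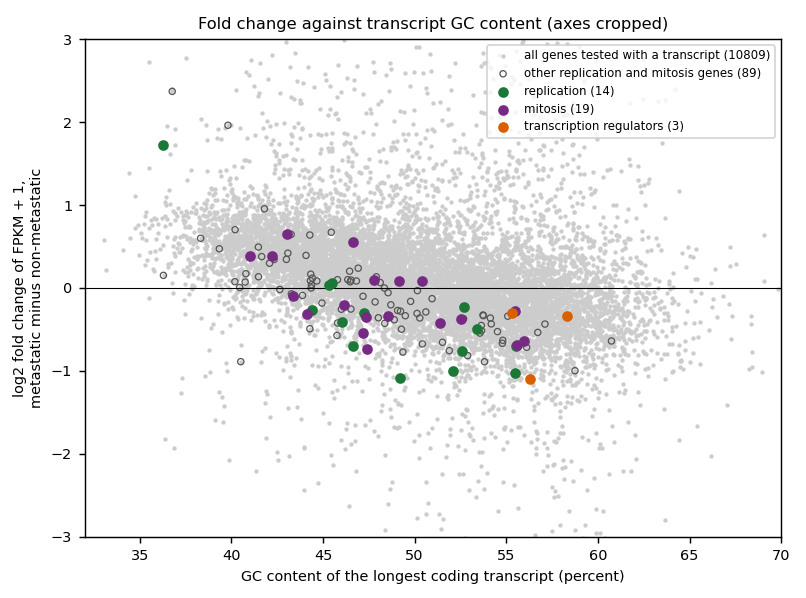
Each point is a gene, with the GC content of its longest coding transcript in percent and its log2 fold change (metastatic minus non-metastatic). Members and related genes follow the downward slope of all 10809 genes, with a rho of -0.62 for the 36 members, and 105 genes lie outside the axes drawn.

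Related genes outside the 36 were counted in the same fit, and none passed after adjustment in either direction. Of 44 other replication genes, 42 were in the table, all of them tested. Both metastatic lines lay below in 20 of them and above in 6 (median -0.23), beside 26.9% below and 28.3% above among all genes. The 2 largest differences among genes with no 0 were Pold2, a subunit of polymerase delta, at 78.0 and 53.8 FPKM in 238N1 and 482N1 against 155 and 109.9 FPKM in 368T1 and 394T4, and Fen1, the flap endonuclease, at 51.2 and 40.3 FPKM in metastatic lines, against 88.0 and 82.2 FPKM in non-metastatic lines. Of 47 other mitosis genes, 17 lay below and 10 above (median 0.07), beside the same shares of all genes. Nusap1, a spindle protein, had 11.7 and 23.4 FPKM in metastatic lines, against 6.33 and 10.3 FPKM in non-metastatic lines. Cdca8, borealin, the partner of Birc5, had 32.1 and 37.8 FPKM in metastatic lines, against 71.2 and 54.2 FPKM in non-metastatic lines. With the GC trend removed the median of the other mitosis genes turned to -0.20, with 27 below and 3 above, beside 25.2% and 25.025% of all genes.

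The regulators around the cycle were counted likewise, beside 26.9% below and 28.3% above among all genes, and nothing particular to these lists is read from their counts. Of 7 G1 cyclins and kinases, 4 lay below and 2 above, with Cdk4, the kinase of D cyclins, at 407 and 365 FPKM in the metastatic lines against 673 and 554 FPKM in the non-metastatic lines, and Ccnd3 at 34.6 and 40.4 FPKM in metastatic lines, against 63.6 and 51.1 FPKM in non-metastatic lines. Of 13 inhibitors and pocket proteins, 3 lay below and 6 above. Pkmyt1, an inhibitory kinase of Cdk1, had 8.71 and 7.92 FPKM in metastatic lines, against 18.4 and 16.3 FPKM in non-metastatic lines, and Rbl2, the pocket protein p130, had 10.8 and 8.43 FPKM in metastatic lines, against 3.47 and 5.50 FPKM in non-metastatic lines. Of 13 other E2F and DREAM genes, 3 lay below and 2 above. E2f6, a repressor, was high in 1 line, with 16.1 FPKM in 238N1 but 129 in 482N1, against 15.1 in 368T1 and 17.1 in 394T4, and E2f2 had 1.90 and 1.57 FPKM in metastatic lines, against 4.03 and 2.92 FPKM in non-metastatic lines. Of 14 genes of the anaphase-promoting complex and its partners, 4 lay below and 3 above, with the conjugating enzyme Ube2s at 45.3 and 45.8 FPKM in metastatic lines, against 81.1 and 70.2 FPKM in non-metastatic lines and the activator Fzr1 at 35.7 and 31.3 FPKM in metastatic lines, against 56.3 and 51.4 FPKM in non-metastatic lines.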

How the data were processed

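RNA of 4 mouse lung cancer lines was sequenced once per line as paired 100 bp TruSeq reads, as the series design text says. Alignment was to mm9, with TopHat (no version) per the submitters' processing notes, and the sources used here name neither the program nor the gene models behind the expression values. The authors deposited FPKM, per the file headers, and no scaling between libraries is stated. Of rows with the same symbol the one highest on average was used. Members, lists and promoter motifs were chosen with earlier results of these data known.

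The test was limma 3.58.1 in R 4.3.3 with a variance trend, two-sided, on log2(FPKM + 1), and 2 metastatic were set against 2 non-metastatic lines. It covered the 12425 genes that averaged 1 FPKM or more, with Benjamini-Hochberg adjustment over all of them and a threshold of 0.05. The limma script was run on simulated data with log2 fold changes larger than those of the members. That run does not tell how well differences of the members' size are found. Positions are from GENCODE vM1 (NCBIM37, the assembly of mm9), which held 99.0% of the row IDs. GC and length trends were removed by loess (span 0.5). The alternatives changed the pseudocount, filter, scaling, variance model, treatment of zeros, rows per symbol and libraries. Values of every library are given for members whose groups do not overlap, with an unadjusted p under 0.05 or a 0, for the regulators and for a few examples of a role. Of each other list the 2 largest differences without a 0 are named. The other allele of the KP genotype is not reported here.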

Additional observations from a re-analysis of the deposited data

How the results depend on the processing

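No paired analysis was possible because the labels give the lines no shared replicate numbers. With the main settings 6 genes passed as lower in metastatic lines and 14 as higher. These counts were 1 and 1 without a filter, 3 and 7 where the mean had to reach 5 FPKM, 98 and 285 scaled to the library sum and 13 and 31 with no variance trend. Robust variance gave 15 lower, leaving out genes at 0 gave 0 higher, and leaving out 1 line gave 0 and 0 each time. For replication, mitosis and regulator genes the medians (main -0.45, -0.28 and -0.33) were 0.18, 0.35 and 0.27 scaled to the library sum, and -0.23, -0.0618 and -0.12 scaled to the protein-coding sum. Quantile normalization gave -0.28 and -0.0843 for the first 2. For the regulators, removing the GC trend gave -0.10 and removing the length trend -0.49, both added once the data had been seen. Leaving out 1 line gave -0.68 to -0.36, -0.29 to -0.12 and -0.78 to -0.23. Minus the median of all genes, the medians were negative in all 19 settings, the main one included: -0.74 to -0.27 for replication, -0.39 to -0.07 for mitosis and -0.80 to -0.11 for the regulators. Variance models, added rows, median centring and scaling to a sum could hardly change these differences by construction.

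Replication genes below without overlap (9) were 0 by the library sum, where 1.86% of all genes lay below. Those above (1) were 2 by the library sum, where 43.4% of all genes lay above. The count above was 0 at a mean of 5, with genes at 0 out or with the GC trend removed, beside 24.9%, 28.5% and 25.025% of all genes. It was 1 to 3 with 1 line out, where 33.3% to 45.2% of all genes lay above. Mitosis genes below (9) were 0 by the library sum and 4 by the protein-coding sum, where 1.86% and 15.5% of all genes lay below. Those above (2) were 4 by either sum, where 43.4% and 43.1% of all genes lay above. The count above was 1 with quantile normalization or the GC or length trend removed, beside 24.3%, 25.025% and 26.6% of all genes. It was 2 to 7 with 1 line out, where 33.3% to 45.2% of all genes lay above (28.3% with all 4 lines). The mitosis minus replication level of 394T4 (-0.05) was -0.40 with medians and -0.49 with members at 0 out. By the library sum the log2 fold change of Cdk1 turned to 0.0877, and those of Plk1, Cdc20, Tyms, Mcm2 and Birc5 shrank to between -0.10 and -0.0177. With the length trend removed, that of Mki67 (0.55) was 0.0842. Filters, variance models and added rows do not alter these fold changes by construction. Ccne2 alone passed in any setting, by the library sum (adjusted p = 0.0395 in limma). The causes were not tested. Read totals are unknown, so the counting error of low members such as Ccne2 and Cenpe is not known.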

Other observations

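Ratios of 2 members within a library do not depend on how the library is scaled, and some separated the groups without overlap. They can still follow transcript GC content, which moved with the fold change across all genes (Spearman rho -0.45). GC was 55.5% in Tk1, 45.3% in Pcna, 49.2% in Cdc6, 55.6% in Cdc20, 50.4% in Bub1b and 46.6% in Mki67. Each separating ratio below lay on the side of that trend. Ccnb2 over Cdk1 (49.1% and 47.2%) and Birc5 over Aurkb (47.4% and 52.5%) also separated the groups but lay on the other side. Birc5 over Aurkb was 1.46 and 1.9 in 238N1 and 482N1, against 2.24 and 2.05 in 368T1 and 394T4. The part of GC in these ratios was not tested. These ratios were chosen after the values were seen and have no test. Tk1 over Pcna was 0.672 in 238N1 and 0.784 in 482N1, against 1.73 in 368T1 and 1.35 in 394T4. Cdc6 over Pcna was 0.128 and 0.107 in the metastatic lines, against 0.292 and 0.247 in the non-metastatic lines. Cdc20, which activates the anaphase-promoting complex, over Bub1b, whose product inhibits it, was 1.21 and 0.985 in the metastatic lines, against 2.18 and 1.64 in the non-metastatic lines. Mki67 over Cdc20 was 0.356 and 0.468 in 238N1 and 482N1, against 0.141 and 0.199 in 368T1 and 394T4. Ccnb1 (GC 44.15%) over Cdk1 was 0.163 and 0.164 in the metastatic lines, against 0.137 and 0.143 in the non-metastatic lines. Ccna2 (GC 46.15%) over Cdk1 was 0.484 and 0.5485 in the metastatic lines, against 0.449 and 0.366 in the non-metastatic lines. Rrm2 over Rrm1, the 2 subunits of ribonucleotide reductase, overlapped, with 0.697 and 0.892 in metastatic against 0.910 and 0.829 in non-metastatic lines.

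Rb1, the pocket protein that holds E2F in check, was also picked out after its values were seen. Its levels were 3.77 FPKM in 238N1 and 5.18 FPKM in 482N1, while 368T1 and 394T4 list it at 0 (limma's adjusted p = 0.215). A 0 here can be a failed estimate, so no fold is given.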
